A study of Mus musculus with 12 samples.

Results

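The Mir200 family comprises 5 microRNA (miRNA) genes in mouse, Mir200b, Mir200a and Mir429 on chromosome 4 and Mir200c and Mir141 on chromosome 6. They were followed here with Ttll10 and Gm13648, the annotated genes that contain the chromosome 4 cluster. These 7 genes were taken by symbol from a table of 32101 annotated features. All 7 had reads, and 6 of them were among the 683 features abundant enough to be tested (Mir200c, with 33 reads in all, was not).

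The values come from sequencing of 20 to 24 nt RNAs in embryonic stem cells (ESCs), pluripotent cells of the early embryo grown in culture, which were labelled as E14 in all 12 libraries. The WT group had 6 libraries (the pairs 1, 2 and 3, each with a library A and a library B, where pair 2 is titled E14 2), Dnmt1 KO had 2 (A and B), labelled Dnmt1 -/-, and Dicer/Dnmt1 KO had 4 (pairs 1 and 2), labelled Dicer/Dnmt1 -/-. Dnmt1 encodes the enzyme that copies DNA methylation to the new strand after replication, and Dicer cuts the hairpin precursors of miRNAs into the mature form. Per the study's methods, its knockouts were made in a Dnmt1 loxP line of strain C57BL/6, in which Dicer was targeted with CRISPR/Cas9. The labels name no strain but E14 and give no day after deletion, so line and genotype cannot be told apart in the comparisons with WT. Libraries that share a number, and the Dnmt1 KO libraries, differ in their titles only by the letter A or B, and the labels do not say whether A and B were grown separately. The p-values below therefore measure the spread between these libraries, which may be technical, and Dnmt1 KO may stand for a single culture.

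Library reads ranged from 16142 to 245184 in WT, were 67678 and 107607 in Dnmt1 KO, and ranged from 8710 to 150701 in Dicer/Dnmt1 KO. Features annotated as miRNAs held 29.5% to 65.8% of the feature counts of a WT library, 51.4% and 53.4% for Dnmt1 KO and 6.55% to 12.7% for Dicer/Dnmt1 KO. These are shares of counts summed over features, where a read counts for every feature it overlaps, and not of library reads. The miRNA features held 44295 reads in Dnmt1 KO A and 67461 in B. The transcripts of the targeted genes gave too few short reads to check the labels, with at most 18 reads per library for Dnmt1 and at most 3 for Dicer1. All 12 listed miRNAs of the Mir290 and Mir302 clusters, which mark ESCs, had reads in WT, where they summed to between 28680 and 93270 RPM, the usual unit of reads scaled to library size. Their sum was 55930 and 99650 RPM in Dnmt1 KO and lay between 1221 and 3797 RPM in Dicer/Dnmt1 KO. These sums are carried by the Mir290 cluster. The Mir302 cluster had lower mean levels in Dnmt1 KO than in WT (Mir302a 79.6 against 428 RPM, Mir302b 24.1 against 197 RPM and Mir302d 279 against 1063 RPM, none of them called), and Mir302c and Mir367 had 0 reads there.

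A miRNA recognises its target messages mainly through its seed, the bases 2 to 8 from the 5′ end, so members that share a seed are expected to share many targets. The Mir200 family is known as a keeper of the epithelial state: it represses Zeb1 and Zeb2, transcription factors that silence epithelial genes such as Cdh1 (E-cadherin), and ZEB1 and ZEB2 in turn repress both Mir200 clusters. DNA methylation of the cluster promoters is known to accompany their silencing in mesenchymal cells. Ttll10 encodes an enzyme of the tubulin tyrosine ligase-like family that adds glycine to proteins, and Gm13648 is annotated as a noncoding transcript.

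The mature 3p sequences are shown because the family is divided by its seed in a different way than by its genome position. They are RNA, written 5′ to 3′ with the seed in capitals, from RefSeq (GRCm38.p6), where all 5 miRNAs were found.
miR-200b-3p: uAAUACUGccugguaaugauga
miR-200c-3p: uAAUACUGccggguaaugaugga
miR-429-3p: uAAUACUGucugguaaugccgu
miR-200a-3p: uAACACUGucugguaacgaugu
miR-141-3p: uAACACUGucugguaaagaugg
Mir200b, Mir200c and Mir429 carried the seed AAUACUG, and Mir200a and Mir141 carried AACACUG. Counted from the 5′ end, the substitution from miR-200a-3p to miR-200b-3p inside the seed is C4U. The closest relatives lie on different chromosomes. miR-200a-3p and miR-141-3p differ at 2 positions (C17A and U22G), and miR-200b-3p and miR-200c-3p differ over the bases they share at 2 positions (U11G and A22G). By contrast miR-200b-3p and its cluster neighbour miR-200a-3p differ at 4. Each of the 5 sequences occurs exactly 1 time in the NCBIM37 genome, the build used by the study, so reads that match a full 3p sequence have 1 exact position.

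All 7 genes lie on the minus strand. In NCBIM37 Mir200b is at chr4:155429790-155429859, followed after 695 bases by Mir200a (chr4:155429005-155429094) and after a further 908 bases by Mir429 (chr4:155428014-155428096). Mir200b and Mir200a lie in the first intron of Gm13648 (chr4:155426824-155433911) and Mir429 in its second and last exon, and all 3 lie in the first intron of the transcript Ttll10-001 of Ttll10 (chr4:155408949-155433453). On chromosome 6 Mir200c (chr6:124668340-124668408) and Mir141 (chr6:124667932-124668003) are 336 bases apart in the first intron of the noncoding transcript Gm15884 (chr6:124665591-124668849).

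**Figure D1:**
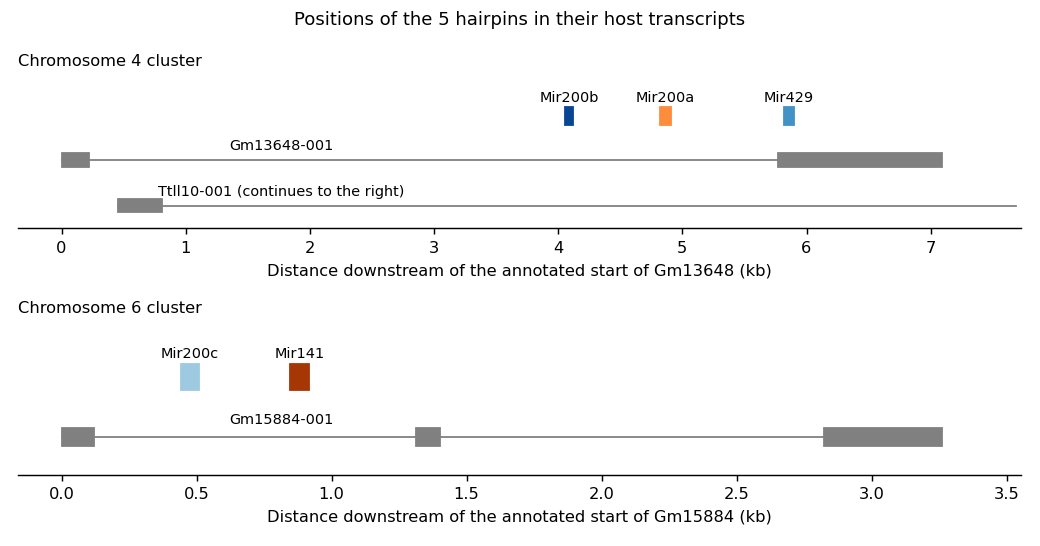
Positions of the 5 hairpins (coloured blocks) above the exons (grey boxes) and introns (grey lines) of their host transcripts, in kb downstream of the annotated start of Gm13648 (top) or Gm15884 (bottom). The chromosome 4 hairpins begin 4052, 4817 and 5815 bases from the start of Gm13648, and the chromosome 6 hairpins 441 and 846 bases from the start of Gm15884.

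The windows at the annotated starts of both noncoding hosts are shown because the members of a cluster are made from a shared precursor and because ZEB1 and ZEB2 are known to bind E-boxes of the form CACCTG. They run from 250 bases before the start to 50 bases from it on, are read from NCBIM37 on the minus strand, and carry each match of CACCTG, or of CAGGTG, which is the same motif on the other strand, in capitals.
Gm13648 window, chr4:155433862-155434161: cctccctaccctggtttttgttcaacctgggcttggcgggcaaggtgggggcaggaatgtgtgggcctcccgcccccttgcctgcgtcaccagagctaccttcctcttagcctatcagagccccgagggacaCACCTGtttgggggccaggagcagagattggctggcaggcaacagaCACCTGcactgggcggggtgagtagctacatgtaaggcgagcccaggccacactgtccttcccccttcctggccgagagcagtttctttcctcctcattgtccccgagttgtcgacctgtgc
Gm15884 window, chr6:124668800-124669099: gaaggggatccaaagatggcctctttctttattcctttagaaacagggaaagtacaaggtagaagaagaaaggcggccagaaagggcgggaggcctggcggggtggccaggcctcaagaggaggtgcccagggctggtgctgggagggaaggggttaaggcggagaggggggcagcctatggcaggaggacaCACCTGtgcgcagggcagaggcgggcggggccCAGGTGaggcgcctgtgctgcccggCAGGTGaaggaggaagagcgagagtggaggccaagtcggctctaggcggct
The Gm13648 window held 2 matches, which began 118 and 72 bases before the start, and the Gm15884 window held 3, which began 58, 26 and 1 bases before it. At least 1 match was found in 20.2% of 32851 RefSeq windows of the same length (GRCm38.p6). The windows held 9 and 12 CpG sites, against a median of 7 in the RefSeq windows, of which 54.2% and 60.4% had fewer. A match is a description of the letters. No methylation or binding was measured in these files.

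The host genes carried no signal of their own. Ttll10 and Gm13648 had the same read count in 12 of 12 libraries, and in 12 of 12 libraries that count equalled the sum of Mir200b, Mir200a and Mir429. Their 951 reads are therefore the reads of the cluster, counted again for each gene that overlaps it, and the values of Ttll10 say nothing of its messenger RNA. On chromosome 6 Gm15884 had 191 reads, of which 4 lay outside Mir200c and Mir141. In the results below the level and fold change of the hosts are given 1 time, as those of the chromosome 4 cluster. Counts of the 6 tested members still include both host rows, which repeat the reads of Mir200b, Mir200a and Mir429.

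In WT the family was of middle rank among miRNAs. By mean RPM, Mir200b stood at place 46, Mir200a at 73, Mir429 at 90, Mir141 at 98 and Mir200c at 130 of the 308 miRNA features with reads. Per 100 bases of annotated hairpin, the mean level in WT was 710 RPM for Mir200b (range 531 to 926, n = 6), 239 RPM for Mir200a, 138 RPM for Mir429, 115 RPM for Mir141 and 39.4 RPM for Mir200c. Mir200b lay above all other members in every WT library by this measure, while the ranges of each further neighbouring pair in the order overlapped. In Dnmt1 KO the order per 100 bases was Mir200b (1440 RPM), Mir141 (672 RPM), Mir429 (336 RPM), Mir200a (265 RPM) and Mir200c (138 RPM), and there only the ranges of Mir429 and Mir200a overlapped. The table counts reads over whole hairpins, so the 3p and 5p arms were not separated.

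The WT and Dicer/Dnmt1 KO libraries were set against each other to describe the family when Dicer and Dnmt1 are both lost. Both genes differ here, so the part of each cannot be told apart. Almost no family reads were left: 6 reads in 247330 library reads, against 754 in 762641 in WT. Mir200b, Mir200a, Mir429, Mir141 and the chromosome 4 host rows all fell. Mir200b, Mir200a, Mir429 and Mir141 lay under their WT range in each Dicer/Dnmt1 KO library, as did 12.9% of the 683 tested features. Mir200c, which was not tested, had 0 reads there, but with 1 to 6 reads per WT library a count of 0 says little.

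Mir200b, the most abundant member, had 371.7 RPM in the lowest, 484.1 RPM at the median and 648.2 RPM in the highest WT library (6 to 108 reads). It had 0 reads in Dicer/Dnmt1 KO 1A, 1B and 2A and 3 reads (19.91 RPM) in 2B. The groups did not overlap. The mean was 496.8 ± 115 RPM in the 6 WT libraries (SD) and 4.98 ± 9.95 RPM in the 4 Dicer/Dnmt1 KO libraries (SD). The fitted log2 fold change, on the scale log2(RPM + 10) after scaling between libraries by trimmed means (TMM), was -5.49 (SE 0.44, limma adjusted p 7.77e-07). Pooled over libraries, Mir200b was 42.9-fold lower per library read (95% counting interval 14.6 to 209).

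Mir200a, which carries the other seed, had 123.9, 221.8 and 278.2 RPM in the lowest, median and highest WT library. It had 0 reads in Dicer/Dnmt1 KO 1A and 1B and 1 read each in 2A (15.77 RPM) and 2B (6.64 RPM). No Dicer/Dnmt1 KO library reached the WT range, with means of 214.8 ± 53.8 RPM (SD, n = 6) and 5.6 ± 7.46 RPM (SD, n = 4). The fold change was -4.26 (log2, SE 0.41, limma adjusted p 2.81e-06), and the pooled ratio was 28.1-fold lower (95% counting interval 7.65 to 233).

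Mir429, the last hairpin of the chromosome 4 cluster, had 61.95, 100.6 and 183.5 RPM in the lowest, median and highest WT library and 0 reads in all 4 Dicer/Dnmt1 KO libraries. With the limit of 3 reads that a count of 0 allows over the group, it was at least 11-fold lower. Its fitted change was -3.76 (log2, SE 0.47, limma adjusted p 2.82e-05), a value that depends on the pseudocount. Ttll10 and Gm13648, which sum these 3 hairpins, averaged 826.1 ± 162 RPM over the 6 WT libraries (SD) and 10.58 ± 13 RPM over the 4 Dicer/Dnmt1 KO libraries (SD), a fitted change of -5.90 (log2, SE 0.44, limma adjusted p 4.1e-07).

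The chromosome 6 members were as scarce. Mir141 had 61.95, 84.83 and 99.85 RPM in the lowest, median and highest WT library and a single read, in 2B (6.64 RPM), in Dicer/Dnmt1 KO. Its WT mean was 82.99 ± 16 RPM (SD, n = 6), and the fold change was -3.25 (log2, SE 0.42, limma adjusted p 3.19e-05). Mir200c had 13.9, 22.58 and 61.95 RPM in the lowest, median and highest WT library (1 to 6 reads) and 0 reads in Dicer/Dnmt1 KO, which makes it at least 1.73-fold lower over the groups. At this depth little more can be said of Mir200c.

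**Figure D2:**
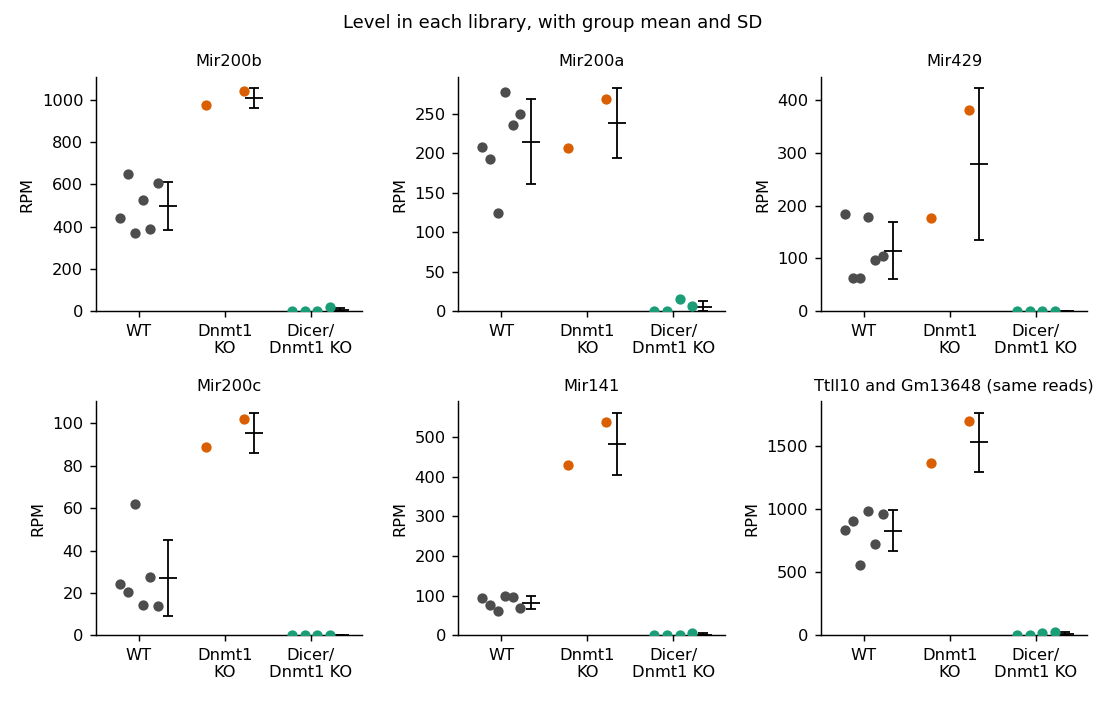
Level of each miRNA and of the host rows in every library (points, RPM on linear axes that start at 0 and differ between panels), with the group mean and SD beside them (bars, cut at 0). Dicer/Dnmt1 KO libraries lie at or near 0 in every panel, and the Dnmt1 KO libraries lie above all WT libraries for Mir200b, Mir200c, Mir141 and the host rows, but not for Mir200a and Mir429.

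All 6 tested members were called lower at an adjusted p under 0.05, where 19% of all 683 tested features and 60.9% of the 133 tested miRNAs were called lower. With library reads alone the 683 features gave 84 higher and 116 lower calls in place of 35 and 130, and the members kept their direction. Each tested member passed the filter on low values through WT or Dnmt1 KO libraries and none through a Dicer/Dnmt1 KO library, so the count is given as a description. The median fold change of the tested miRNAs was -2.75 on the same log2 scale. Counted from the largest fall, Mir200b stood at place 10 and Mir200a at 34, while Mir429 at 47 and Mir141 at 61 of 133 were nearer to the middle. Depth limits single libraries: 1 read was worth 40.83 RPM in Dicer/Dnmt1 KO 1A and 114.81 RPM in 1B, and a count of 0 in 1B allows up to 344.4 RPM, above the WT mean of each family miRNA but Mir200b. In bulk RNA, fewer cells that express the family and less of it per cell cannot be told apart.

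The share of the family in all miRNA reads was also lower in Dicer/Dnmt1 KO than in WT. Such a fall is not particular to the family, as the 10 tested miRNAs of the Mir290 and Mir302 clusters had a median log2 fold change of -5.39. The share also depends on miRNAs that kept reads, among them Mir143, Mir182 and Mir21 (1847, 1800 and 1512 reads over the Dicer/Dnmt1 KO libraries). In WT the 5 miRNAs made up 0.0981% to 0.328% of all reads of miRNA features (mean 0.238% ± 0.079, SD, n = 6). In Dicer/Dnmt1 KO the share was 0% in 1A and 1B, 0.0154% in 2A and 0.0465% in 2B (mean 0.0155% ± 0.0219, SD, n = 4). All 4 Dicer/Dnmt1 KO libraries lay under all 6 WT libraries. A two-sided exact permutation test of the difference, -0.222 percentage points, gave p = 0.00952, the smallest that 4 against 6 allow, and 0.0476 after adjustment over the 5 tests of shares. With A and B summed the difference was -0.239 and the exact permutation p was 0.2, which no result could go below there. The counts behind the Dicer/Dnmt1 KO shares were 0 of 2942, 0 of 582, 1 of 6501 and 5 of 10747 miRNA reads, and the 95% Wilson interval of 1B reached 0.656%. These intervals, and the limits for 0 reads, reflect counting error alone, as reads that carry no molecular identifier need not be separate molecules. In WT the share was lowest in 2A, where Mir182, another epithelial-state miRNA, held 412800 RPM; the part of Mir182 in that low share was not tested.

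**Figure D3:**
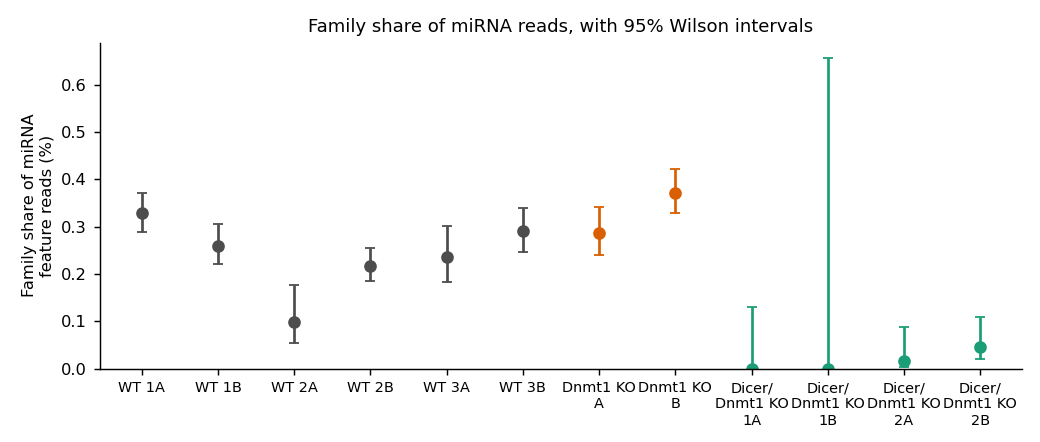
Share of the 5 family miRNAs in all reads of miRNA features (%, linear axis from 0) in each library, with 95% Wilson intervals. The WT libraries lie between 0.0981% and 0.328%, the Dnmt1 KO libraries at 0.287% and 0.372%, and the Dicer/Dnmt1 KO libraries at or under 0.0465%, with a wide interval for 1B.

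The next question was how the family stands in Dnmt1 KO relative to WT, when Dnmt1 is deleted and Dicer is kept. Mir141 was higher in both Dnmt1 KO libraries than in any WT library, but it could be tested only because it was high there. It was the only tested member with an adjusted p under 0.05, and without the filter on low values it had none (limma adjusted p 0.351), so its difference is given as a description. Mir200a, which shares the seed of Mir141 but lies on chromosome 4, had a fitted change near 0 with a wide interval. Mir200b and Mir429, also on chromosome 4, had intermediate values that missed the threshold. WT is the reference here too, so this comparison shares its 6 libraries with the one above.

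Mir141 had 428.5 RPM in Dnmt1 KO A and 539 RPM in B (29 and 58 reads), against 61.95, 84.83 and 99.85 RPM in the lowest, median and highest WT library. Both Dnmt1 KO libraries lay far above the highest WT library. The mean was 483.7 ± 78.1 RPM (SD, n = 2), against 82.99 ± 16 RPM for WT (SD, n = 6), and the fold change was 2.59 (log2, SE 0.53, 95% interval 1.46 to 3.73, limma adjusted p 0.00662). Mir141 passed the filter only through these 2 libraries. The call was lost without the filter (limma adjusted p 0.351), with a pseudocount of 1 (0.189), with A and B summed (0.121) and when either Dnmt1 KO library was left out (0.0813 without A and 0.126 without B), while the fitted change stayed between 2.59 and 2.74 in these fits. The fits with A and B summed and without Dnmt1 KO A or B keep the 683 features of the 12 libraries, and with the filter applied anew Mir141 dropped out of the test in each of them. Without the WT pair E14 2, whose library 2A is the shallowest of WT, it was 2.70 (limma adjusted p 0.003).

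Mir200c, its neighbour 336 bases upstream, had 6 reads in Dnmt1 KO A (88.66 RPM) and 11 in B (102.2 RPM), against 13.9 to 61.95 RPM (1 to 6 reads) in WT. The Dnmt1 KO values lay above the WT range, but Mir200c was too low to be tested. Summed, the chromosome 6 cluster averaged 110.2 ± 16.6 RPM over WT (SD, n = 6) and 579.2 ± 87.7 RPM over Dnmt1 KO (SD, n = 2).

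On chromosome 4, Mir200b had 975.2 and 1041 RPM in Dnmt1 KO A and B, both above the highest WT library at 648.2 RPM. Its fold change was 1.20 (log2, SE 0.56, limma adjusted p 0.272). Mir429 had 177.3 and 381 RPM, of which the former lay within the WT range of 61.95 to 183.5 RPM, and its fold change was 1.40 (log2, SE 0.60, limma adjusted p 0.234). Mir200a had 206.9 and 269.5 RPM, both within the WT range of 123.9 to 278.2 RPM. Its fold change was 0.33 (log2, SE 0.51, 95% interval -0.78 to 1.44, limma adjusted p 0.79), an interval that leaves room for a change in either direction. The host rows had 1359 and 1691 RPM, above the WT maximum of 984.3 RPM, with a fold change of 1.06 (log2, SE 0.56, limma adjusted p 0.331).

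A single call among 6 tested members stands beside 6.59% of all tested features, and 21.1% of tested miRNAs, called higher in Dnmt1 KO. The levels of 4 tested members (Mir200b, Mir141, Ttll10 and Gm13648, the last pair being the same reads) did not overlap WT and were higher, as were those of 17.1% of the 683 features. The median fold change of the tested miRNAs was 1.40, so that Mir200b (place 73 from the highest rise of 133), Mir429 (69) and Mir200a (103) stood at or below the middle and Mir141 at place 25. As a share of miRNA reads the family had 0.287% in Dnmt1 KO A and 0.372% in B, of which the former lay within the WT range. The difference of 0.0916 percentage points had p = 0.214 (two-sided exact permutation test, smallest possible 0.0714) and 0.268 adjusted.

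**Figure D4:**
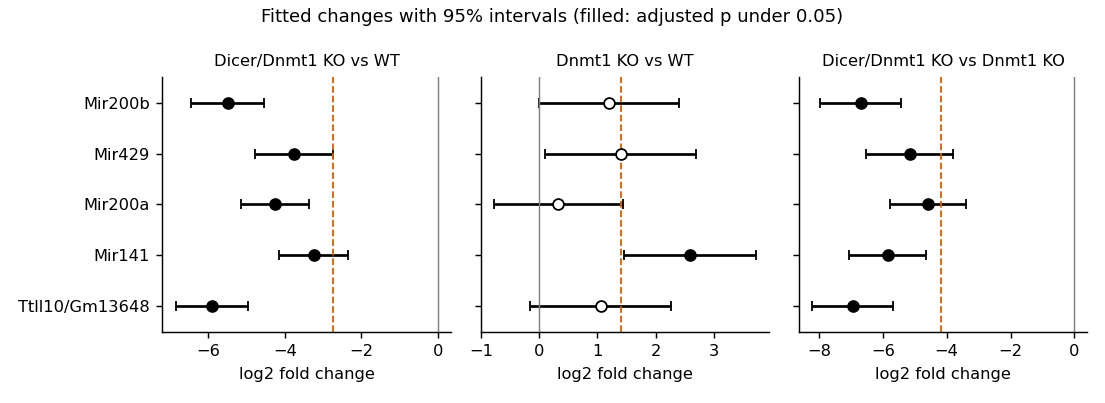
Fitted log2 fold changes on the log2(RPM + 10) scale (points) with 95% intervals (bars) in the 3 comparisons, filled where the limma adjusted p was under 0.05. Grey lines mark 0 and dashed lines the median of the 133 tested miRNAs (-2.75, 1.40 and -4.17). Mir141 passed the filter only through the 2 Dnmt1 KO libraries, so its place relative to the median in Dnmt1 KO against WT is a description.

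The make-up of the family can be read within each library, where no scaling is needed. The chromosome 6 cluster gave 8% to 18.2% of family reads in WT libraries, and the highest of these, 2A, rests on 2 of 11 reads. In Dnmt1 KO it gave 27.6% (35 of 127 reads, 95% Wilson interval 20.5% to 35.9%) and 27.5% (69 of 251 reads, 22.3% to 33.3%). The chromosome 4 share was accordingly 72.5% ± 0.0488 in Dnmt1 KO (SD, n = 2) and 87.8% ± 3.74 in WT (SD, n = 6). Both Dnmt1 KO libraries lay outside the WT range, and a two-sided exact permutation test of the difference, -15.3 percentage points, gave p = 0.0714, the smallest that 2 against 6 allow, and 0.179 adjusted. The design therefore could not reach 0.05 here.

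By seed the family was less divided. Mir200b, Mir200c and Mir429 together gave 68.3% ± 4.68 of family reads in WT (SD, n = 6) and 65.7% ± 0.568 in Dnmt1 KO (SD, n = 2). The difference of -2.53 percentage points had p = 0.5 (two-sided exact permutation test, 0.5 adjusted), and both Dnmt1 KO shares (65.3% and 66.1%) lay within the WT range of 60.7% to 73.1%. Inside the AACACUG seed, reads were divided differently between the clusters. Mir141 made up 21.7% to 33.3% of the reads of Mir141 and Mir200a in WT (mean 28.3% ± 4.01, SD, n = 6), and 67.4% (29 of 43 reads) and 66.7% (58 of 87 reads) in Dnmt1 KO. Mir200a went from 22.8% ± 3.68 of family reads in WT (SD, n = 6) to 11.3% ± 0.375 in Dnmt1 KO (SD, n = 2), and Mir141 from 8.96% ± 1.69 to 23% ± 0.193. These 3 shares are given as a description, with no test.

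**Figure D5:**
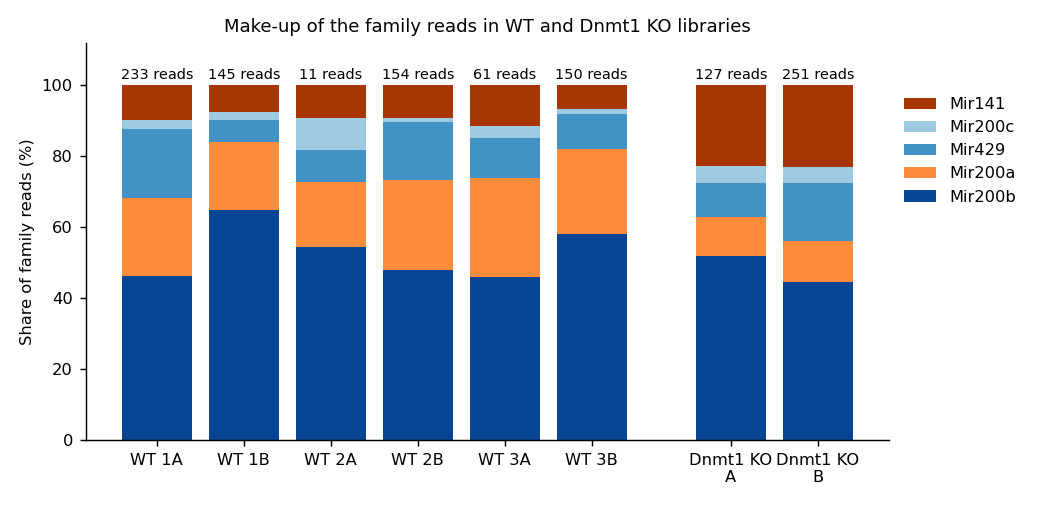
Shares of the 5 miRNAs in the family reads (stacked bars, %) of each WT and Dnmt1 KO library, with the family reads above each bar. Blues mark the AAUACUG seed and oranges the AACACUG seed, and Mir141 takes 22.8% to 23.1% in Dnmt1 KO against 6.67% to 11.5% in WT.

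The change from Dnmt1 KO to Dicer/Dnmt1 KO addressed the further loss of Dicer. Per the study's methods the double knockout is a line derived from the Dnmt1 loxP line, and the labels give no day after deletion. Clone and day therefore cannot be told apart from Dicer here. This comparison shares its libraries with both of the others. The Dnmt1 KO libraries held 378 family reads in 175285, and the 6 reads left in Dicer/Dnmt1 KO made the family 88.9-fold lower (95% counting interval 40.5 to 244). Fold changes were -6.69 for Mir200b (log2, SE 0.59, limma adjusted p 4.19e-06), -4.59 for Mir200a (0.55, 2.71e-05), -5.16 for Mir429 (0.64, 3.66e-05), -5.85 for Mir141 (0.56, 6.29e-06) and -6.95 for the host rows (0.59, 4.19e-06). Mir429 was at least 24.9-fold and Mir200c at least 8-fold lower. All 6 tested members were called lower, beside 21.7% of the tested features and 74.4% of the tested miRNAs. Here too no member passed the filter through a Dicer/Dnmt1 KO library, and Mir141 passed it only through the 2 Dnmt1 KO libraries, where it is high, so the count and the change of Mir141 are descriptions. With library reads alone the features gave 24 higher and 127 lower calls, against 8 and 148 with TMM, and the members kept their direction. Mir141 stood at place 18 and Mir200b at place 10 of 133 from the largest fall, and Mir200a, at 56, was near the median of -4.17. The difference in family share of miRNA reads was -0.314 percentage points (p = 0.133 by the two-sided exact permutation test, the least that 4 libraries against 2 allow, 0.222 adjusted).

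Other miRNAs named for the epithelial state were compared as a list of 15 outside the family, of which 9 were tested. Against WT 6 of the 9 fell in Dicer/Dnmt1 KO and none rose, with a median of -3.60 (-0.09 over all features), where 19% of all features and 60.9% of the tested miRNAs were called lower. They include Mir96 (-4.54, limma adjusted p 3.06e-06), which is made with Mir182 and Mir183 from a cluster expressed in sensory epithelia, and Mir192 (-4.91, limma adjusted p 0.000496), a miRNA of gut and liver epithelium. In Dnmt1 KO against WT limma called 0 of 9, where it called 6.88% of all features in either direction, with a median of 1.11 (0.13 over all features). At an unadjusted p under 0.05 it was 1 of 9, and with voom weights 0 of 9 were called. Mir192 had the largest called fall of the list against Dnmt1 KO (-7.42, limma adjusted p 0.000207), where 7 of 9 fell, beside 74.4% of the tested miRNAs. Mir205, which acts beside the Mir200 family on Zeb1 and Zeb2, had -2.64 against WT (limma adjusted p 0.111) and was not called in any comparison.

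Of 19 listed mesenchymal-state miRNAs, 15 were in the table and 8 were tested. In Dnmt1 KO against WT 3 of the 8 rose and none fell, with a median of 1.75, where 6.59% of all features and 21.1% of the tested miRNAs were called higher. They were Mir143 (3.63, limma adjusted p 0.00506), known from smooth muscle and fibroblasts, Mir22 (2.62, limma adjusted p 0.00762) and Mir21 (1.73, limma adjusted p 0.0216), both broadly expressed in differentiated cells. In Dicer/Dnmt1 KO against WT Mir143 (2.95, limma adjusted p 0.0009) and Mir221 (1.61, limma adjusted p 0.0468) were called higher, beside 5.12% of all features. None of the 8 was called lower. The median of 0.65 lies between changes in both directions. Mir22, Mir21, Mir10b and Mir31 had values below 0 (-0.78, -0.66, -0.34 and -0.27), and Mir10a and Mir222 had 1.62 and 1.57, none of them called. Against Dnmt1 KO Mir21 and Mir22 fell and none rose, with a median of -0.63, beside 21.7% of all features and 74.4% of the tested miRNAs called lower. The medians of the epithelial and mesenchymal lists thus had the same sign in Dnmt1 KO against WT and in Dicer/Dnmt1 KO against Dnmt1 KO. They differed in sign in Dicer/Dnmt1 KO against WT, where the members of the mesenchymal list went in both directions. The difference between the lists was not tested. Per the study's methods, ESCs were grown with or without feeder cells, and the part of feeder cells in these levels was not tested.

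Of 29 miRNAs that mark differentiated cells 21 were in the table, and they summed to 7806 to 14660 RPM per WT library, to 37870 and 46860 RPM for Dnmt1 KO and to 10030 to 33250 RPM for Dicer/Dnmt1 KO. Of the 21, 11 had no read in WT, 12 none in Dnmt1 KO and 8 none in Dicer/Dnmt1 KO. Of the 5 tested, 3 rose in Dnmt1 KO against WT, beside 6.59% of all features and 21.1% of the tested miRNAs. They were again Mir143, Mir22 and Mir21, which the mesenchymal list also holds. The blood miRNAs Mir142 and Mir150 were not called there (0.41 and -0.92, limma adjusted p 0.812 and 0.606). They fell in Dicer/Dnmt1 KO against WT (-4.79 and -4.39, limma adjusted p 1.59e-05 and 0.000109), where Mir143 rose. The part of these cells in the higher level of Mir141 in Dnmt1 KO was not tested. Of the 12 ESC markers, 10 were tested. In Dnmt1 KO against WT limma called 0 of 10, where it called 6.88% of all features in either direction. At an unadjusted p under 0.05 it was 2 of 10, and with voom weights 2 of 10 were called. The median of the 10 was -0.06 (0.13 over all features). It lies between changes in both directions, from -2.18 for Mir302a to 1.54 for Mir290. In Dicer/Dnmt1 KO 10 of 10 fell against WT (19% of all features and 60.9% of the tested miRNAs) and 9 of 10 against Dnmt1 KO (21.7% and 74.4%).

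Targets and partners of the family could not be judged from these short reads. Of 24 genes of the epithelial or mesenchymal state, only Fn1, which encodes the matrix protein fibronectin, was tested, and it was not called in any of the 3 comparisons (0.48, -0.36 and 0.84, limma adjusted p 0.802, 0.906 and 0.763). Zeb1 had 3 reads in WT, 1 in Dnmt1 KO and 3 in Dicer/Dnmt1 KO, and Zeb2 had 1, 1 and 0. Cdh1 had 29, 1 and 12 reads in the same order, with mean levels of 31.0, 4.65 and 43.9 RPM. The groups differ in library reads, so these raw counts cannot be compared directly. Of 7 neighbouring genes of the clusters, Phb2 and Atn1 were tested and neither was called in any comparison, and in Dnmt1 KO against WT Phb2 had -0.71 (SE 0.62, limma adjusted p 0.606) and Atn1 0.44 (SE 1.05, limma adjusted p 0.862).

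The levels of the members were alike in pattern across the 12 libraries, in which the Dicer/Dnmt1 KO values are all low. Pearson's r of log2(RPM + 10) between pairs of members ran from 0.81 (Mir200a and Mir200c) to 0.98 (Mir200b and Mir200a), and it was 0.93 within the chromosome 6 cluster. The tested features most like the summed family level over the 12 libraries were Mir17 (r = 0.98) and, each with r = 0.97, Mir467c, Mir30a, Mcm7 and Mir25, where Mcm7 contains Mir25. When each library was taken as its deviation from the group mean, the closest of 675 features were Odz4 (0.86), U12 (0.84), Gm16953 (0.83), Mir17 (0.79) and SNORD45 (0.77). The points share their libraries and depth, and the values are descriptions of 12 libraries, with no test.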

How the data were processed

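Small RNA-seq of mouse ESCs was measured in 12 libraries, grouped by genotype label. From the labels and methods, reads were trimmed (Trim Galore 0.3.5), kept at 20 to 24 nt, mapped with Bowtie2 2.2.6 to NCBIM37 and overlapped with annotated features in SeqMonk. The deposited values are log2 RPM made by the authors, with 0 reads written as 0.9 read. Whole reads came back for 100% of the values in 12 of 12 columns (within 0.001 read), which also gave library reads. The 89 value columns that match no sample here were left out. A read was counted for every feature that it overlaps.

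Scaling factors were computed by TMM over the tested features, with 30% of the log ratios and 5% of the abundances trimmed. The scaled log2(RPM + 10) was fitted with limma 3.58.1 under R 4.3.3, using the mean-variance trend, in a single model of 3 groups without covariates, which was first tested on simulated data. Fold changes on this scale understate the change of low features. A feature was tested if 2 or more libraries reached 111.3 RPM, worth 10 reads at the median depth, and all libraries together held 15 reads. Benjamini-Hochberg adjustment covered all 683, at 0.05. The unit is log2, so no count test was run. Pairs A and B were kept separate since their dispersions (0.0134 to 0.295) were above 0.01. Shares were compared by two-sided exact permutation tests (Python 3.11.15), with Wilson intervals for single libraries. Levels and shares use library reads without factors. Gene intervals are from GENCODE on NCBIM37, matched for all 32101 features. All 7 members are named, with the 5 features of highest correlation by each of 2 measures and members of lists chosen by symbol, 2 to 4 named by size of change. The members and lists were chosen with earlier results of these data known.

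Alternatives were other scalings, pseudocounts of 1 and 50 RPM, no filter, voom weights, summed A and B, a replicate block, and each library or the pair E14 2 left out. TMM over all features, a consensus correlation of A and B, fits on fixed features and shares without libraries under 20 family reads were added after the data were seen. Depth ran from 8710 to 245184 reads, so 1 read was worth 4.08 to 114.81 RPM. Limits for 0 reads use 3 reads over the group, or per library where so named.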

Additional observations from a re-analysis of the deposited data

Results flagged for a closer look

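The check covered 16 sets of 4 to 10 libraries, each the level of a member or of the family sum, or a share, in a group. Of these, 3 held a library whose gap to its nearest neighbour, as a part of the whole range, exceeded Dixon's 95% value. About 5% of sets of normally distributed values would do so by chance. A set in which only 1 library has reads is always flagged, and this holds for both sets of Dicer/Dnmt1 KO named below. Mir200b in Dicer/Dnmt1 KO 2B stood apart at 19.91 RPM, which is 3 reads where the other libraries had 0. Mir141 in the same library stood apart at 6.636 RPM, a single read against 0 in the others. Dicer/Dnmt1 KO 2B is the deepest library of its group, with 150701 reads. Mir200c in WT 2A stood apart at 61.95 RPM, also a single read, in the shallowest WT library.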

How the results depend on the processing

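In Dicer/Dnmt1 KO against WT and against Dnmt1 KO, every tested member kept its direction and its call under all alternatives in which it was tested (fitted changes from -8.09 to -1.53 and from -9.30 to -2.76). In Dnmt1 KO against WT the count of called members went from 1 to 0 with a pseudocount of 1, without a filter and with A and B summed (whether the filter was applied anew or the features were fixed), and ran from 0 to 1 as libraries were left out. The values of Mir141 in these fits are given above, and its change lay between 2.21 and 3.03 over all alternatives. The count of all features called in that comparison was 47. It was 28 with TMM over all features, 30 with a consensus correlation of A and B (0.3), 31 with a pseudocount of 1, 80 with voom weights, 12 with A and B summed (21 on fixed features), 181 without E14 2, 97 without WT 2A and 15 without Dnmt1 KO A or without B (22 on fixed features). Scaling moved the median of all features by up to 0.70, 0.41 and 0.91 in absolute size in Dicer/Dnmt1 KO against WT, Dnmt1 KO against WT and Dicer/Dnmt1 KO against Dnmt1 KO. The replicate numbers did not pair libraries: correlations of same-numbered WT and Dicer/Dnmt1 KO deviations were -0.23, 0.11, -0.17 and -0.28, and no library matched its own number best. The replicate block left the member counts at 6, 1 and 6 and the change of Mir141 in Dnmt1 KO at 2.59 (limma adjusted p 0.0133), and moved calls over all features from 47 to 39 in that comparison. The family share of miRNA reads differed by -0.239 percentage points between Dicer/Dnmt1 KO and WT with A and B summed (exact permutation p = 0.2). Between Dicer/Dnmt1 KO and Dnmt1 KO it ran from -0.357 to -0.271 as libraries were left out. The other share differences kept their direction. Depth limits Mir200c and the Dicer/Dnmt1 KO libraries 1A and 1B most.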
